A study of Homo sapiens with 8 samples.

Results

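The JUN and FOS family genes JUN, JUNB, JUND, FOS, FOSB, FOSL1 and FOSL2 encode the core subunits of the transcription factor AP-1. These 7 genes were taken by their symbols from the 57978 genes listed for both media. The mRNAs were measured in HEK293T, a human line of embryonic kidney origin transformed with SV40 large T antigen. All cells expressed eIF3d-TEV: eIF3d, a subunit of a translation initiation factor, fused to an HA tag and a site cut by TEV protease. Cells spent 48 h in glucose-free medium (DMEM without glucose with 10% dialyzed fetal bovine serum) or in complete medium (the usual DMEM, 10% fetal bovine serum). Ultraviolet light of 254 nm crosslinked RNA to protein, eIF3d was caught on anti-HA beads, and TEV protease released it from the rest of the eIF3 complex. Polyadenylated RNA was sequenced from the eIF3d immunoprecipitate (IP) and from the input. The 4 groups were glucose-free IP, glucose-free input, complete IP and complete input, with 2 libraries each. Whether replicates were separate cultures is not given, so p-values measure only the spread between libraries, which may be technical. An IP from untagged cells was not analysed here, and carry-over on the beads has no measured background. Dialyzed serum also lacks other small molecules, so that the effects of glucose and of serum type cannot be told apart.

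AP-1 is a dimer of a JUN protein with a FOS, ATF or MAF protein, held together by a leucine zipper and bound to DNA through an adjoining basic region. JUN proteins can pair with each other, whereas FOS proteins need a JUN partner. Many of these genes are immediate early genes, whose short-lived mRNAs appear within minutes of growth factors or stress, while JUND is expressed more evenly in most cells. Translation usually starts when eIF4E binds the mRNA cap. The eIF3d subunit can bind the cap in its place on some mRNAs, and JUN mRNA is a known client of that route. The series asked which mRNAs are held by eIF3d in fed cells and in cells without glucose.

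AP-1 sites have the letters TGANTCA, and the related sites of JUN and ATF dimers have TGACNTCA. The windows from 250 bases before to 50 bases after the RefSeq gene start (GRCh38.p14) were searched for both motifs on both strands, and for CCAAT and TATAAA. RefSeq held 6 of the 7 genes, and FOSL1 can only be named. Sites of these factors in their own genes are shown with 15 or fewer flanking bases on each side and the motif in capitals, because JUN is known to bind the JUN gene.
JUN, chr1:58784096-58784125, minus strand: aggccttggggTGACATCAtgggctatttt
JUND, chr19:18281804-18281833, minus strand: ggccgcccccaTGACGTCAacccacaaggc
FOSL2, chr2:28392851-28392880, plus strand: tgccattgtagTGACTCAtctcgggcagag
The JUN and JUND motifs started at positions -67 and -200 from the RefSeq gene start, and 7.72% of 35116 windows held TGACNTCA. The GENCODE model of JUN used below starts further upstream, at chr1:58784327, so this JUN motif lies within the 5′ untranslated region of that model. The FOSL2 motif started at position 5, and 7.71% of windows held TGANTCA. Neither set of letters was found in the windows of JUNB, FOS or FOSB. A TATAAA match started at -31 in JUNB, -33 in FOS and -30 in FOSB, and 11.5% of windows held one. CCAAT was found in the windows of JUN, JUNB and JUND and in 34.6% of all windows. These are matches of letters and no measure of binding.

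The JUN, JUNB and JUND mRNAs each come from a single exon in GENCODE release 29 (GRCh38), a trait of 237 of the 8318 tested nuclear protein-coding genes. They differ in base composition. The first 90 coding bases show this, with the start codon in capitals.
JUN, chr1:58782981-58783070, minus strand: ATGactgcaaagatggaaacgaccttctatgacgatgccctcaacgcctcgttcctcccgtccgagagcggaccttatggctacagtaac
JUNB, chr19:12791772-12791861, plus strand: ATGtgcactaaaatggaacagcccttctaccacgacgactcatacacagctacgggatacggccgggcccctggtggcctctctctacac
JUND, chr19:18281395-18281484, minus strand: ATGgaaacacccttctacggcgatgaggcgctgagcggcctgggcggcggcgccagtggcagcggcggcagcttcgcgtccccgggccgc
G and C made up 53.3% of these bases in JUN, 56.7% in JUNB and 74.4% in JUND. Over the whole transcript the GC content was 56.7% in JUN, 64.9% in JUNB and 69.7% in JUND, against a median of 52.0% over the 8318 genes. JUND lay above 99.4% of those genes. The FOS family transcripts had 52.6% (FOS), 57.7% (FOSB), 60.0% (FOSL1) and 53.3% (FOSL2). JUN had the longest 5′ untranslated region of the 7, 1257 bases from the GENCODE start against a median of 183, longer than in 98.7% of the genes. Those of FOSL2 (863 bases, percentile 96.5) and FOSB (592 bases, percentile 91.7) were also long. That of JUND had 138 bases with 89.9% G and C. The exons of JUNB overlapped those of HOOK2 by 259 of 1820 bases, and since the use of strand in counting is not given, JUNB values are uncertain to that extent. The exons of the other 6 genes overlapped no other gene.

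Library depth was 8656881 and 12034109 reads in the glucose-free IPs, 33996600 and 43400700 in the inputs without glucose, 24596360 and 21215974 in the complete IPs and 31708867 and 19490552 in the complete inputs. The 2 mitochondrial rRNAs took 0.399% to 0.613% of reads in the glucose-free IPs, 49.4% and 50.7% in the inputs without glucose, 1.26% and 10.6% in the complete IPs and 26.8% and 39.4% in the complete inputs. Every nuclear mRNA is diluted accordingly in the inputs. The median RPKM (reads relative to exon length and library size) of the tested genes was 5.60 and 6.49 in the glucose-free IPs and 0.833 and 0.891 in the inputs without glucose. It was 4.87 and 4.55 in the complete IPs and 1.23 and 1.75 in the complete inputs. RPKM were scaled to 1 median per library before testing. Scaling removes the whole of this difference, whatever its source, and the part of mitochondrial rRNA in it was not tested. Complete IP replicate 2, with 10.6% mitochondrial rRNA, stood apart from replicate 1, and the pair correlated with r = 0.900 across genes against 0.958 to 0.994 in the other groups. All 4 markers of HEK293-derived cells (NEFL, NEFM, INA and PAX2) reached 1 RPKM. Of 18 markers of blood, endothelium, liver, fibroblasts, muscle, epidermis and pancreas, 3 did, HBA1 and COL1A1 among them. Their summed level was 2.92 and 5.09 RPKM in the glucose-free IPs, 2.71 and 2.89 in the inputs without glucose, 7.34 and 10.1 in the complete IPs and 7.43 and 11.7 in the complete inputs, and their part in the results was not tested. In bulk RNA, fewer expressing cells and less mRNA per cell cannot be told apart. EIF3D, the gene of the tagged protein, had 147 and 196 RPKM in the glucose-free IPs, 34.3 and 35.0 in the inputs without glucose, 317 and 211 in the complete IPs and 36.5 and 50.3 in the complete inputs.

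JUN was the most abundant family mRNA in all 8 libraries and was strongly represented in the eIF3d IP in both media. It encodes c-Jun, the strongest activator among the JUN proteins. JUN had 357 and 521 RPKM in the glucose-free IPs and 6.95 and 7.67 RPKM in the glucose-free inputs. In complete medium the IPs held 232 and 248 RPKM and the inputs 5.18 and 12.0 RPKM. Every IP library lay far above every input library. After scaling, the JUN level in the IP was 8.10-fold that in the input without glucose (log2 change 3.02 ± 0.33 SE, adjusted p = 0.000114, limma). With complete medium it was 8.85-fold (3.15 ± 0.33, adjusted p = 9.70e-05). Among the 10100 tested genes JUN ranked 47 from the top without glucose and 9 in complete medium. The change passed the test under every alternative tried, and was 5.29 and 5.43 with quantile normalization in glucose-free and complete medium. Without scaling it was 5.70 and 4.75, where the median of all genes was itself shifted by 1.58 and 1.11.

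**Figure D1:**
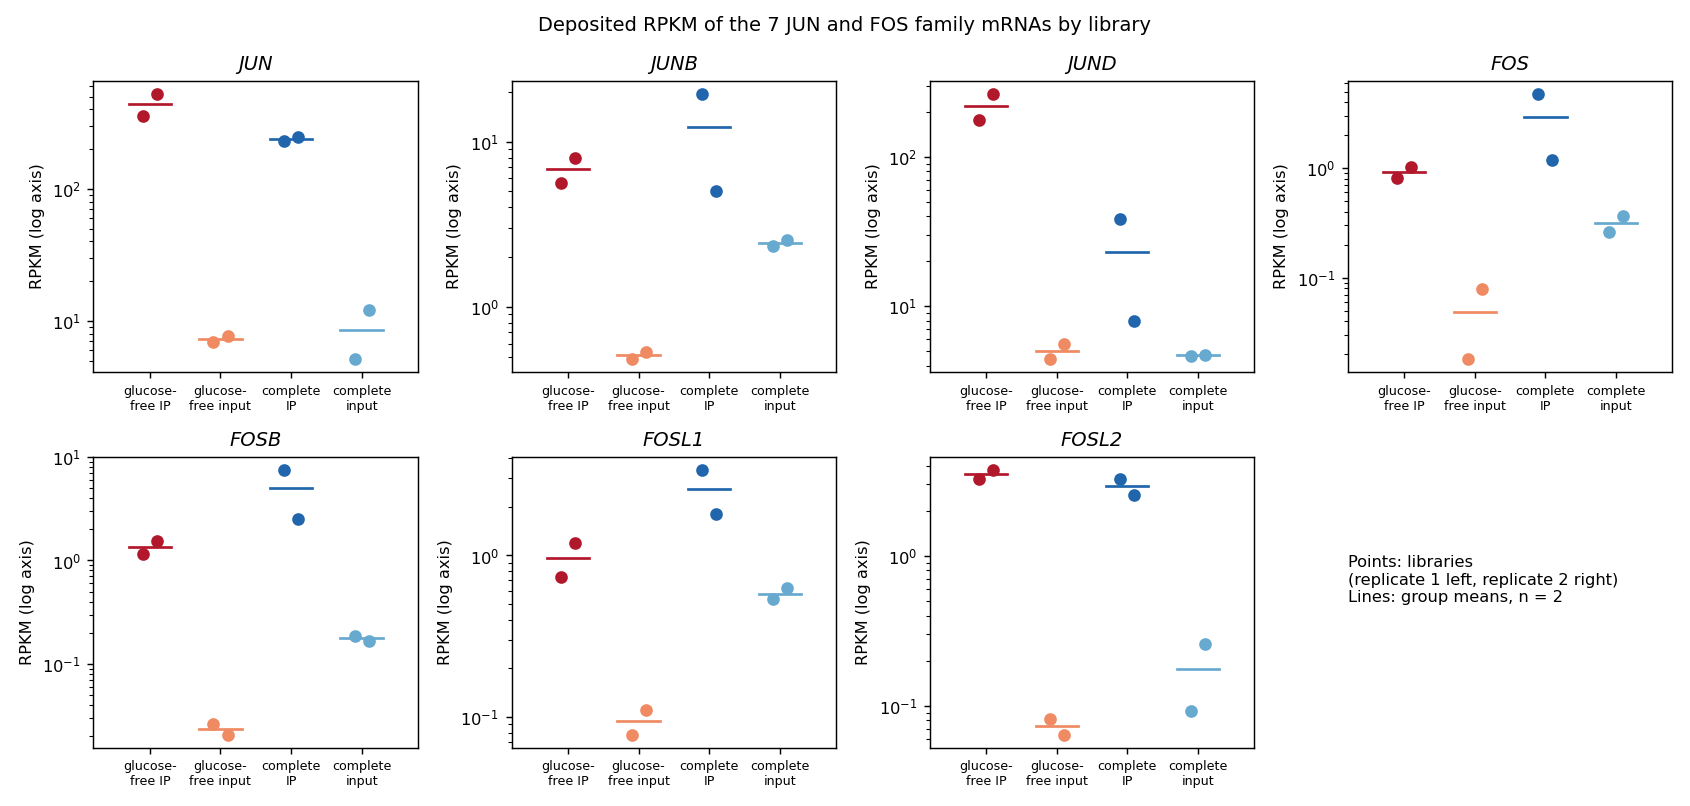
Deposited RPKM of each of the 7 mRNAs in the 8 libraries, on log axes that differ between panels. Points are libraries (replicate 1 left), lines are means of 2, and groups run from glucose-free IP, glucose-free input and complete IP to complete input. For each mRNA both IP points lie above both input points of the same medium, and the complete IP points lie far apart for JUND, JUNB, FOS and FOSB.

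JUND encodes JunD, which in many cells slows growth where c-Jun promotes it. Its mRNA had 177 and 263 RPKM in the glucose-free IPs, against 4.44 and 5.61 RPKM in the glucose-free inputs. The complete IPs held 38.4 and 7.97 RPKM, against 4.66 and 4.71 RPKM in the complete inputs. The glucose-free IPs therefore lay above every other library, and the deposited input levels of both media overlapped. After scaling the inputs did not overlap, with 13.03 and 15.4 without glucose and 9.28 and 6.59 in complete medium. The scaled complete IPs, at 19.3 and 4.28, lay on either side of the complete inputs. The scaled IP level was 5.83-fold the input level without glucose (log2 change 2.54 ± 0.54, adjusted p = 0.00337), rank 112 of 10100, and passed under every alternative tried. In complete medium the change was 0.23 ± 0.54 (adjusted p = 0.733), with a 95% interval from -1.0 to 1.46. It passed there only with the values as deposited (1.73, adjusted p = 0.0130), with length and GC trends removed (0.99, adjusted p = 0.0450; 0.0475 with the replicate block) and without complete IP replicate 2 (1.20, adjusted p = 0.0171). Without complete IP replicate 1 the value was -0.74.

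The difference between these JUND ratios, glucose-free minus complete, was 2.31 ± 0.76 and ranked 42 of 10100. It did not pass the test (adjusted p = 0.108), and its 95% interval ran from 0.58 to 4.05. The value turned on the complete IP libraries, which differed 4.51-fold in scaled JUND level. Without replicate 1 the difference was 3.28 (adjusted p = 0.00489), and without replicate 2 it was 1.34 (adjusted p = 0.112). It also passed with the values as deposited (3.45, adjusted p = 0.0110). With length and GC trends removed it was 1.45 (adjusted p = 0.123).

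JUNB encodes JunB, a weaker activator that can restrain c-Jun. Its mRNA had 5.59 and 7.99 RPKM in the glucose-free IPs and 0.485 and 0.532 RPKM in the glucose-free inputs. The complete IPs held 19.3 and 5.02 RPKM and the complete inputs 2.34 and 2.54 RPKM. The deposited IP and input values did not overlap in either medium. Relative to the median gene, however, JUNB showed a log2 change of 0.60 ± 0.42 without glucose (adjusted p = 0.240) and 0.31 ± 0.42 in complete medium (adjusted p = 0.544). The glucose-free change passed with the glucose-free libraries alone (adjusted p = 0.00283) and without either complete IP library (adjusted p = 0.0209 and 0.0238), whose spread enters the shared error. The complete change passed without complete IP replicate 2 (1.08, adjusted p = 0.00635). JUNB also passed in both media with the values as deposited and with length and GC trends removed.

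**Figure D2:**
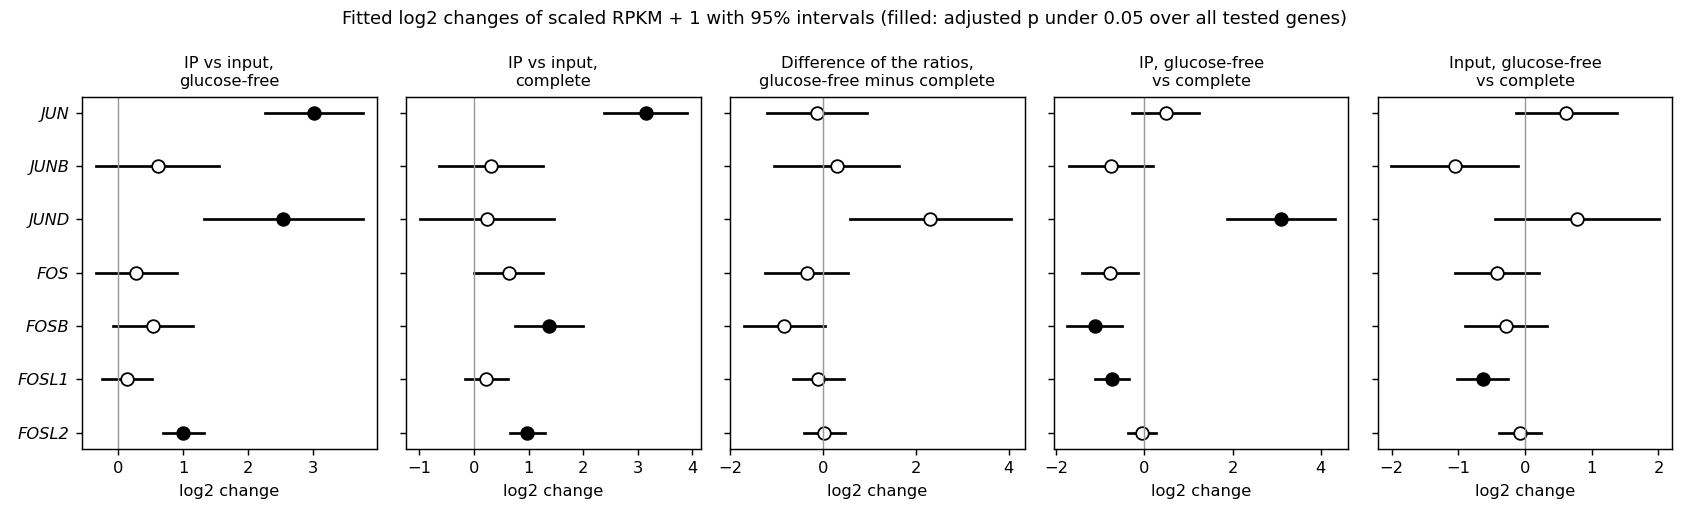
Fitted log2 changes of scaled RPKM + 1 for the 7 mRNAs in the 5 comparisons, with 95% intervals, filled where the adjusted p over 10100 genes was under 0.05. JUN and FOSL2 are filled for IP against input in both media, JUND only without glucose and FOSB only in complete medium, and no mRNA is filled for the difference of the ratios.

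The 4 FOS family mRNAs were scarce. Each was under 1 RPKM in all 4 inputs and entered the test through its IP values. FOS, FOSB and FOSL1 averaged under 1 RPKM over the 6 libraries other than the complete IPs, and so entered through the complete IPs alone. Comparisons of these mRNAs are therefore given gene by gene, as descriptions, and lend no weight to a count over the family. FOSL2 encodes Fra-2, which lacks the activation domain of c-Fos. It had 3.28 and 3.74 RPKM in the glucose-free IPs (203 and 322 reads) and 0.0822 and 0.0644 RPKM in the glucose-free inputs (20 reads each). The complete IPs held 3.26 and 2.56 RPKM and the complete inputs 0.0925 and 0.258 RPKM (21 and 36 reads). Its 4 IP levels lay close together, and no IP library overlapped an input library. FOSL2 passed the test in both media, with log2 changes of 1.0 ± 0.14 without glucose (adjusted p = 0.000327) and 0.98 ± 0.14 in complete medium (adjusted p = 0.000404). Adding 1 to each value shrinks such low levels, and voom on recovered reads gave 2.77 and 2.53. Centring after the log ended the glucose-free call (0.15, adjusted p = 0.439).

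FOSB encodes FosB, an early response protein known also for a truncated, long-lived form in the brain. The mRNA had 1.14 and 1.56 RPKM in the glucose-free IPs and 0.0265 and 0.0207 RPKM in the glucose-free inputs (5 reads each). The complete IPs held 7.50 and 2.53 RPKM and the complete inputs 0.187 and 0.166 RPKM (33 and 18 reads). The complete IPs lay above the glucose-free IPs, and the complete inputs above the glucose-free inputs. IP exceeded input in complete medium with a log2 change of 1.37 ± 0.27 (adjusted p = 0.00257), which was 0.86 without complete IP replicate 1 and 2.90 with voom. Without glucose the change was 0.53 ± 0.27 (adjusted p = 0.123). It passed there with pseudocounts of 0.1 and 0.5, with voom (2.93, adjusted p = 0.0120), with the values as deposited, with the glucose-free libraries alone and without either complete IP library, and it was -0.72 (adjusted p = 0.101) with centring after the log.

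FOS encodes c-Fos, the classic immediate early partner of c-Jun. It had 0.821 and 1.03 RPKM in the glucose-free IPs (23 and 40 reads) and 0.0182 and 0.0783 RPKM in the glucose-free inputs (2 and 11 reads). The complete IPs held 4.72 and 1.19 RPKM (376 and 82 reads) and the complete inputs 0.263 and 0.364 RPKM (27 and 23 reads). A count of 2 lies under the floor of 3 reads used here, so the glucose-free input level of FOS is poorly known. The log2 change was 0.28 ± 0.28 without glucose (adjusted p = 0.410) and 0.63 ± 0.28 in complete medium (adjusted p = 0.0765). The glucose-free change passed as higher with the glucose-free libraries alone (adjusted p = 0.0215), without either complete IP library (0.0225 and 0.0294) and with the values as deposited (0.0250), and it reversed with centring after the log (-1.04, adjusted p = 0.0363). The complete change passed without complete IP replicate 2 (1.15, adjusted p = 0.000415).

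FOSL1 encodes Fra-1, another FOS protein without the c-Fos activation domain. It had 0.735 and 1.19 RPKM in the glucose-free IPs (12 and 27 reads) and 0.0779 and 0.110 RPKM in the glucose-free inputs (5 and 9 reads). The complete IPs held 3.38 and 1.80 RPKM and the complete inputs 0.535 and 0.625 RPKM. Its log2 changes were small, 0.13 ± 0.17 without glucose (adjusted p = 0.537) and 0.23 ± 0.17 in complete medium (adjusted p = 0.272). The glucose-free value passed as higher with length and GC trends removed (0.71, adjusted p = 0.0157; 0.0237 with the replicate block) and with the values as deposited (0.83, adjusted p = 0.00390), and it reversed with centring after the log (-1.08, adjusted p = 0.00333). Without complete IP replicate 2 the complete value passed (0.46, adjusted p = 0.0150).

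Among all tested genes, 59.8% were called in IP against input without glucose, 27.6% as higher and 32.2% as lower. In complete medium 59.9% were called, 30.0% as higher and 29.9% as lower. Against these shares, JUN and JUND were called without glucose and JUN in complete medium. FOSL2 was also called in both media and FOSB in complete medium, but both entered the test through their IP values. The family's position thus came from JUN at the far end of both distributions and from JUND at the end of 1 of them. The other mRNAs lay above 55.6% to 92.2% of the tested genes. With the values as deposited, which are not relative to the median gene, JUN, JUNB and JUND were higher in IP in both media. There 81.7% of all tested genes were called higher without glucose and 63.6% in complete medium.

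**Figure D3:**
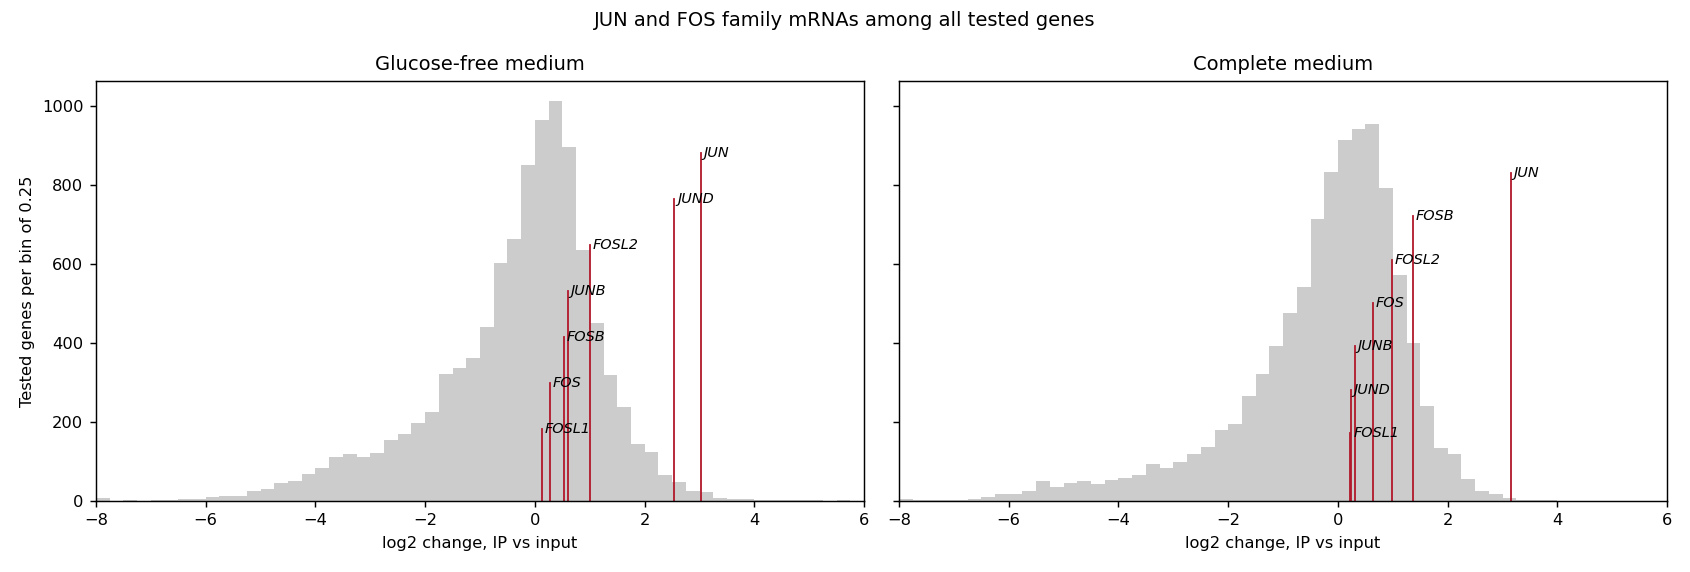
Fitted log2 changes of IP against input for the 10100 tested genes, in bins of 0.25 (left glucose-free, right complete medium), with the 7 mRNAs as red lines of arbitrary height. JUN lies at the upper end in both panels at 3.02 and 3.15, and JUND lies at 2.54 without glucose and at 0.23 in complete medium.

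None of the 7 ratio differences between the media passed the test, where 5.03% of tested genes did, 1.95% with a higher and 3.08% with a lower ratio without glucose. JUND was the only 1 of the 7 with an unadjusted p under 0.05, and voom also called 0. JUN had a difference of -0.13 ± 0.47 with a 95% interval from -1.20 to 0.94, so that a 2-fold lower ratio lies inside it. The interval of FOSL2 was narrower, from -0.42 to 0.47 around 0.02. FOSB had -0.84 ± 0.39 (adjusted p = 0.204) and passed with centring after the log (-1.74, adjusted p = 0.0464). Without complete IP replicate 2, FOSB (-1.34, adjusted p = 0.0102) and FOS (-0.87, adjusted p = 0.0291) passed. Without replicate 1, JUND and JUNB (1.06, adjusted p = 0.0357) did.

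Between the inputs FOSL1 was lower without glucose, and no other family mRNA passed the test. FOSL1 entered the test through the complete IPs alone, and had 5 and 9 reads in the glucose-free inputs. Its call is therefore a description, and it was lost with no filter. FOSL1 was 0.64-fold its complete level on the scale of values + 1 (log2 change -0.64 ± 0.17, adjusted p = 0.0212), where 34.0% of tested genes passed, 18.4% higher and 15.6% lower. Leaving out any 1 of the 4 input libraries ended this call (adjusted p from 0.0544 to 0.136), as did 4 other alternatives. JUNB showed -1.06 ± 0.42 (adjusted p = 0.0803) and passed without either complete IP library (adjusted p = 0.00481 and 0.00538). Its deposited levels of 0.485 and 0.532 RPKM in the glucose-free inputs lay below 2.34 and 2.54 RPKM in the complete inputs. JUN showed 0.61 ± 0.33 (adjusted p = 0.179) and JUND 0.78 ± 0.54 (adjusted p = 0.282). JUN passed without complete input replicate 2 (0.94, adjusted p = 0.0407), and JUND passed without either complete IP library (adjusted p = 0.0451 and 0.0475). FOS had -0.42 ± 0.28, FOSB -0.29 ± 0.27 and FOSL2 -0.07 ± 0.14, with adjusted p of 0.257, 0.434 and 0.709.

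Between the IPs themselves JUND was higher without glucose. This comparison is the sum of the input change and the ratio difference and shares their libraries. JUND in the glucose-free IPs was at 8.54-fold its complete IP level (log2 change 3.09 ± 0.54, adjusted p = 0.00322), rank 97 of 10100. FOSB had -1.12 ± 0.27 (adjusted p = 0.0122) and FOSL1 -0.74 ± 0.17 (adjusted p = 0.00968), but both were tested only because they were high in the complete IPs. With no filter neither FOSB nor FOSL1 passed (adjusted p = 0.0784 and 0.0508). FOS entered the test in the same way, so its values in this comparison are also a description. In this comparison 41.2% of tested genes passed, 21.1% higher and 20.1% lower. The JUND call held under every alternative tried, but its size turned on the complete IPs, with 4.07 without replicate 1 and 2.12 without replicate 2. Without glucose-free IP replicate 1 the FOSB and FOSL1 calls were lost (adjusted p = 0.0670 and 0.0763), and without replicate 2 they were lost again (0.0588 and 0.05003). FOS showed -0.78 ± 0.28 (adjusted p = 0.0508) and passed with 8 of the alternatives, the replicate block among them (adjusted p = 0.0450). JUNB showed -0.76 ± 0.42 (adjusted p = 0.171) and passed without complete IP replicate 2 (-1.53, adjusted p = 0.00409). JUN changed by 0.49 ± 0.33 (adjusted p = 0.267) and FOSL2 by -0.05 ± 0.14 (adjusted p = 0.801).

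Since ratios within a library need no scaling between libraries, the make-up of the family was also read directly from the RPKM. JUN took 65.4% and 65.2% of the summed family RPKM in the glucose-free IPs and 57.5% and 54.4% in the glucose-free inputs. Its share was 75.2% and 92.2% in the complete IPs and 39.1% and 58.1% in the complete inputs. JUND took 32.4% and 32.9% in the glucose-free IPs, 36.7% and 39.9% in the inputs without glucose, 12.4% and 2.96% in the complete IPs and 35.1% and 22.8% in the complete inputs. The JUND share in the glucose-free IPs lay just below that in the glucose-free inputs, and in both complete IPs it lay below every other library. The level of JUN was 2.02 and 1.98 times that of JUND in the glucose-free IPs and 1.57 and 1.37 times in the glucose-free inputs. It was 6.04 and 31.1 times in the complete IPs and 1.11 and 2.55 times in the complete inputs. The 2 groups of IPs did not overlap in this ratio, and a permutation test of 2 against 2 cannot give a two-sided p under 0.333. JUNB took 1.02% and 1.0% in the glucose-free IPs, 4.02% and 3.77% in the inputs without glucose, 6.27% and 1.87% in the complete IPs and 17.7% and 12.3% in the complete inputs. Its share was lower in each IP library than in any input of the same medium.

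**Figure D4:**
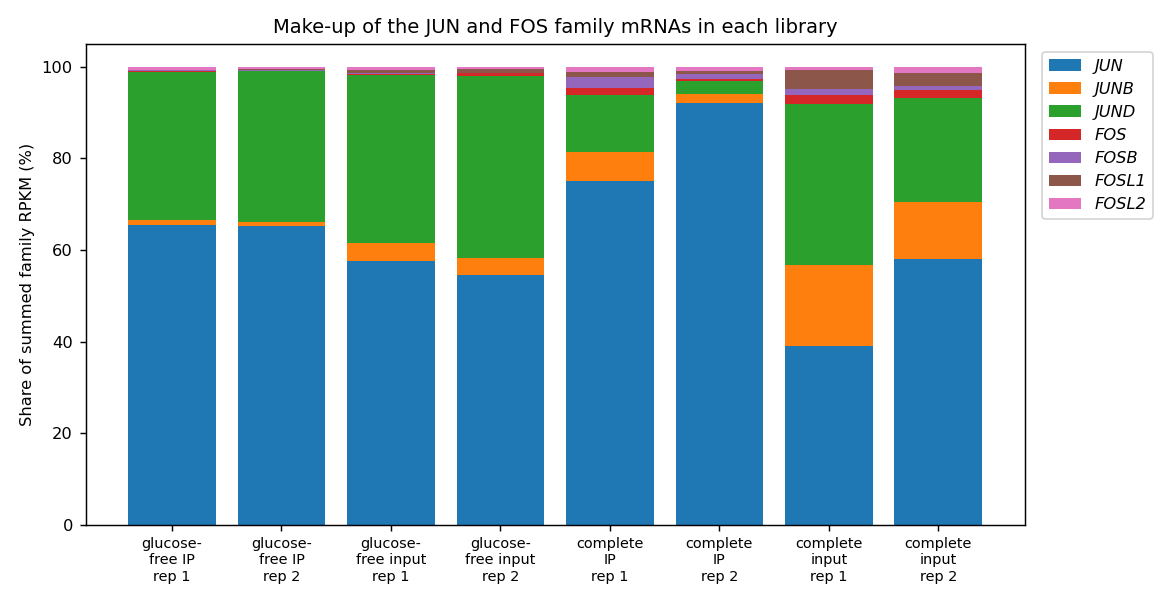
Share of each mRNA in the summed RPKM of the 7, in percent, for each library, from glucose-free IP and input to complete IP and input. JUN and JUND fill most of each bar, and the JUND part is 32.4% and 32.9% in the glucose-free IPs and 12.4% and 2.96% in the complete IPs.

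The complete IP replicates disagreed for most of the family. The scaled level in replicate 1 over replicate 2 was 4.51-fold for JUND, 3.70-fold for FOS, 3.60-fold for JUNB, 2.77-fold for FOSB and 1.76-fold for FOSL1. FOSL2 differed 1.19-fold and JUN had a ratio of 0.875. The JUND spread on the log2 scale was larger than that of 99.1% of the tested genes, that of JUNB larger than 98.1% and that of FOS larger than 93.3%. Across the 8318 coding genes the log2 ratio of the replicates had a Spearman rho of 0.624 with transcript GC content. This is a description across genes of 2 libraries. The median log2 ratio was 0.54 in genes of 65% to 70% GC, where JUND lies, and JUND itself had 1.94. The ratio difference between media had a rho of 0.512 with GC content across the same genes. The part of base composition in the JUND result was measured only through the removal of length and GC trends, after which JUND was higher in the IP without glucose by 2.43 (adjusted p = 0.000704) and between the IPs by 2.45 (adjusted p = 0.00198). With the same removal the JUND change in complete medium was 0.99 in place of 0.23 and passed (adjusted p = 0.0450), and its ratio difference was 1.45 in place of 2.31. In the glucose-free IPs the 7 replicate ratios lay between 0.716 (FOSL1) and 1.02 (FOSL2). The JUN and JUND spreads there were still larger than those of 90.4% and 92.0% of the tested genes.

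**Figure D5:**
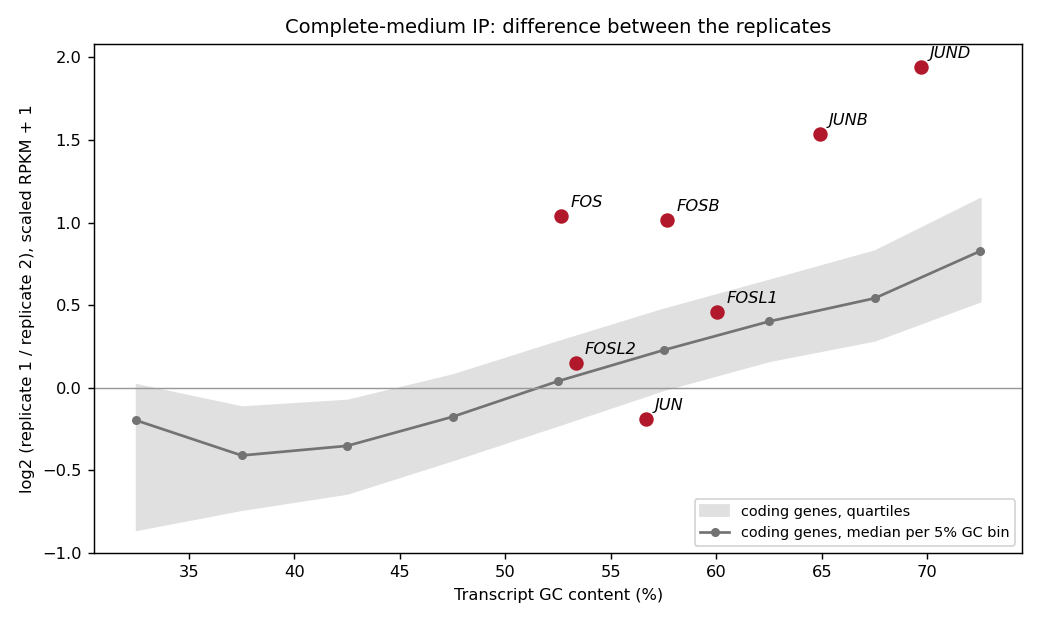
Log2 ratio of complete IP replicate 1 over replicate 2 (scaled RPKM + 1) against the GC content of the transcript, in percent. The line and band are the median and quartiles of coding genes per 5% bin, and red points are the 7 mRNAs, of which JUND (1.94), JUNB (1.53), FOS (1.04) and FOSB (1.02) lie above the band and JUN (-0.19) below it.

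Transcript length also went with the IP to input ratio. Across the 8318 coding genes Spearman's rho with length was 0.571 without glucose and 0.663 in complete medium, again as a description across genes. JUN, with 3540 bases against a median of 2917, lies near the middle in length, at percentile 60.7. JUND has 1863 bases (percentile 25.6) and JUNB 1820 (percentile 24.6). After removal of length and GC trends JUN, JUNB and JUND were called higher in IP in both media. Of all tested genes 30.6% were called higher without glucose and 33.3% in complete medium. The FOS family mRNAs entered the test through their IP values and are left out of this count. Among the 237 single-exon coding genes, 84 were higher and 75 lower in IP without glucose, with a median log2 change of 0.16 against 0.06 for all coding genes. In complete medium 85 were higher and 51 lower, with medians of 0.23 and 0.10.

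The other genes of the pathway gave a mixed picture. List counts near the share of all tested genes called are no result about a list. Of 114 calls of list genes named by the rule for named genes, 48 passed under every alternative that tested the gene, 61 were lost in at least 1 and 11 reversed in at least 1. The genes named below are among the 48 unless a loss or a reversal is given. Of those named in IP against input, MAFG, IER2 and DUSP16 averaged under 1 RPKM in the inputs of both media. They entered the test through their IP values, and their IP to input changes are descriptions. Of 18 genes for dimer partners of JUN and FOS (ATF, MAF and related proteins), 13 were tested. Without glucose 5 were higher and 1 lower in IP, with a median log2 change of 0.13 against -0.02 for all tested genes. In complete medium 8 were higher and 0 lower, with medians of 1.03 and 0.03. Of all tested genes 27.6% were higher and 32.2% lower in IP without glucose, and 30.0% and 29.9% in complete medium. Leaving out 1 library gave 4 to 6 higher and 0 to 2 lower without glucose. In complete medium it gave 5 to 9 higher and 0 to 2 lower, with 5 and 2 without complete input replicate 2. Centring after the log gave 3 higher and 2 lower without glucose, and 5 and 1 in complete medium. MAFG and MAFK encode small MAF proteins without an activation domain. MAFG averaged 46.1 ± 5.29 RPKM in the glucose-free IPs and 0.326 ± 0.063 RPKM in the glucose-free inputs (SD, n = 2). It averaged 10.4 ± 2.29 RPKM in the complete IPs and 0.843 ± 0.226 RPKM in the complete inputs. MAFG was higher in IP in both media, by 3.35 ± 0.20 without glucose and 1.42 ± 0.20 in complete medium (adjusted p = 2.13e-05 and 0.000413). Its ratio difference of 1.94 ± 0.28 (adjusted p = 0.0113) was lost without either glucose-free IP or without glucose-free input replicate 1. MAFK was higher in the glucose-free than in the complete IPs (1.51 ± 0.20, adjusted p = 0.00120), and the larger protein MAF was lower (-2.30 ± 0.20, adjusted p = 0.000338). NFE2L1, a stress-responsive partner of small MAF proteins, was higher in IP in both media (2.38 ± 0.24 without glucose and 1.85 ± 0.24 in complete medium) and lower in the glucose-free than in the complete inputs (-1.47 ± 0.24, adjusted p = 0.00259). ATF3, a stress-induced partner, was higher in the glucose-free than in the complete inputs (1.90 ± 0.32, adjusted p = 0.00310), a call lost with the values as deposited.

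The kinase cascades that phosphorylate c-Jun (JNK and p38) were listed with 20 genes, of which 15 were tested. Without glucose 7 were higher and 0 lower in IP, with a median of 0.47 against -0.02. In complete medium 6 were higher and 0 lower, with a median of 0.32 against 0.03. Of all tested genes 27.6% were higher and 32.2% lower in IP without glucose, and 30.0% and 29.9% in complete medium. Leaving out 1 library gave 5 to 10 higher and 0 or 1 lower without glucose, and 4 to 8 higher and 0 or 1 lower in complete medium. With the values as deposited all 15 were higher in both media, where 81.7% of all tested genes were higher without glucose and 63.6% in complete medium. MAP3K11, a kinase upstream of JNK, was higher in IP without glucose (2.29 ± 0.24, adjusted p = 9.65e-05), as was MAP2K7, which activates JNK directly (1.59 ± 0.29, adjusted p = 0.00145).

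Of 20 genes leading from ERK to FOS transcription, 16 were tested. Without glucose 7 were higher and 1 lower in IP, with a median of 0.35 against -0.02. In complete medium 9 were higher and 2 lower, with a median of 0.77 against 0.03. Of all tested genes 27.6% were higher and 32.2% lower in IP without glucose, and 30.0% and 29.9% in complete medium. Between the inputs these shares were 18.4% and 15.6%, and between the IPs 21.1% and 20.1%. Between the inputs 6 were lower and 0 higher without glucose, with a median of -0.49 against -0.04, but 0 were called without either glucose-free input library. Between the IPs 7 were lower and 0 higher, with a median of -0.60 against 0.05, and 4 were lower without either glucose-free IP library. Leaving out 1 library gave 6 to 8 higher and 0 to 3 lower in IP without glucose, and 7 to 11 higher and 2 to 4 lower in complete medium. The coactivator EP300 averaged 15.6 ± 1.17 RPKM in the glucose-free IPs and 0.453 ± 0.029 RPKM in the glucose-free inputs. It averaged 83.6 ± 16.3 RPKM in the complete IPs and 3.64 ± 2.68 RPKM in the complete inputs. EP300 was higher in IP in both media (1.68 ± 0.33 without glucose and 2.82 ± 0.33 in complete medium) and lower in the glucose-free than in the complete IPs (-2.59 ± 0.33, adjusted p = 0.00104). Its relative CREBBP followed the same order (2.19 ± 0.30, 2.77 ± 0.30 and -1.99 ± 0.30). SRF and ELK1, which bind the FOS promoter together, were higher in IP without glucose (1.74 ± 0.23 and 1.48 ± 0.24, adjusted p = 0.000260 and 0.000719).

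Genes that limit AP-1 were listed as 16 for the turnover or dephosphorylation of its proteins or kinases and 10 for proteins that bind unstable mRNAs. Of the first, 12 were tested. Without glucose 2 were higher and 2 lower in IP, with a median of -0.20 against -0.02. In complete medium 4 were higher and 0 lower, with a median of 0.38 against 0.03. Of all tested genes 27.6% were higher and 32.2% lower in IP without glucose, and 30.0% and 29.9% in complete medium. Centring after the log gave 1 higher and 3 lower without glucose and 2 higher and 2 lower in complete medium, and without any 1 glucose-free library 1 was higher and 1 lower without glucose. DUSP16, a phosphatase of JNK, was higher in IP in both media (1.57 ± 0.25 without glucose and 1.80 ± 0.25 in complete medium). COP1, a ligase for c-Jun, was higher in the glucose-free inputs (0.77 ± 0.19, adjusted p = 0.0147), a call lost without either glucose-free input library, with centring after the log and with the values as deposited. Of the second list, 9 were tested. Of all tested genes 21.1% were higher and 20.1% lower without glucose between the IPs. There 4 of the list were lower and 0 higher, with a median of -0.81 against 0.05. That count was 1 without either glucose-free IP library and with the values as deposited. ZFP36L1 (-1.54 ± 0.30, adjusted p = 0.00494) is among the 4, and encodes a protein that speeds the decay of AU-rich mRNAs. Its relative ZFP36L2 was higher in IP in both media (1.28 ± 0.26 without glucose and 1.59 ± 0.26 in complete medium).

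Of all tested genes 18.4% were higher and 15.6% lower without glucose between the inputs. Of 18 genes known as AP-1 targets in various cells, 7 were tested. Between the inputs 1 was higher and 3 were lower without glucose, with a median of -0.74 against -0.04, and 1 was lower without either glucose-free input library. CCND1, which encodes cyclin D1, was lower in the glucose-free than in the complete inputs (-1.31 ± 0.18, adjusted p = 0.00141) and IPs (-1.14 ± 0.18, adjusted p = 0.00238). Unlike JUN, the metallothionein mRNA MT2A was lower in IP in complete medium (-3.85 ± 0.34, adjusted p = 4.45e-05), as was TIMP1, for an inhibitor of metalloproteases (-2.98 ± 0.34, adjusted p = 0.000133). Without glucose they had -1.79 ± 0.34 and -2.28 ± 0.34, and both directions reversed there with the values as deposited.

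Of all tested genes 27.6% were higher and 32.2% lower in IP without glucose, and 30.0% and 29.9% in complete medium. Other early response genes numbered 25, with 18 tested. Without glucose 9 were higher and 0 lower in IP, with a median of 0.60 against -0.02. That count was 5 and 4 without glucose-free IP replicate 1 and 2, and 4 and 6 without glucose-free input replicate 1 and 2. In complete medium 12 were higher and 1 lower, with a median of 0.74 against 0.03, and 8 were higher without complete IP replicate 1. IER2 and IER5 were higher in IP without glucose (1.76 ± 0.22 and 1.63 ± 0.29, adjusted p = 0.000191 and 0.00127). GADD45B, a stress gene, was higher in IP in complete medium (1.25 ± 0.28, adjusted p = 0.00488). It was also higher in IP without glucose (1.13 ± 0.28, adjusted p = 0.00798). That glucose-free call was lost without glucose-free IP replicate 2 and without glucose-free input replicate 1. MYC and KLF10 were lower in the glucose-free than in the complete IPs (-1.52 ± 0.29 and -1.48 ± 0.22, adjusted p = 0.00463 and 0.00191). EGR1, induced like FOS through SRF, averaged 1.26 ± 0.167 RPKM in the glucose-free IPs and 12.5 ± 11.5 RPKM in the complete IPs (-2.03 ± 0.45, adjusted p = 0.00841), a call lost with no filter. Both KLF10 and EGR1 were tested only because they were high in the complete IPs.

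The coding genes whose log2 values lay closest to each family mRNA over the 8 libraries, each gene taken relative to its own mean, were found by root mean square distance among 8317 candidates. JUN was closest to EN2, PPP1R26 and BSN, at distances of 0.388, 0.486 and 0.497. EN2 had 77.8 and 113 RPKM in the glucose-free IPs, 1.57 and 1.60 in the inputs without glucose, 52.0 and 62.4 in the complete IPs and 2.48 and 3.26 in the complete inputs. JUND was closest to BBC3, CEBPB and PIM3, at 0.419, 0.473 and 0.555. BBC3 had 33.2 and 49.7 RPKM in the glucose-free IPs and 10.8 and 2.77 RPKM in the complete IPs. A split between the complete replicates like that of JUND follows from how BBC3 was picked. JUNB was closest to MYADM, SREBF1 and CNTFR, FOS to MAN1A1, TPBG and NAB2, and FOSB to DCHS1, ROR2 and ELFN1. FOSL1 was closest to TCP11L1, SUSD5 and WIPF1, and FOSL2 to TSPYL2, ASB1 and NBPF15, all at distances of 0.0796 to 0.170 for the 5 scarcer mRNAs. Adding 1 before the log shrinks low levels, so these distances cannot be compared with those of JUN and JUND. No member was among the 3 nearest genes of another.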

How the data were processed

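The authors deposited RPKM values, with a table for each medium. HISAT2, SAMtools and cutadapt were run on GRCh38, per the submitters' processing notes. Not given in the sources used here were their versions, the read counter, its annotation and its use of strand. The preparation of cells and RNA is per the labels and the series' design text. With GENCODE 29 exon lengths, 97.5% to 98.0% of each library's low values came out as whole reads (within 0.02, up to 50 reads), and 98.3% of 40690 detected genes were whole in all libraries. Depths and reads are from this recovery. Floors of 3 reads and counts cover counting error only.

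Tested were 10100 genes whose RPKM averaged 1 or more across all 8 libraries. RPKM were scaled to 1 median per library over them. With R 4.3.3, limma 3.58.1 fitted log2(scaled RPKM + 1) with 4 group means and a trended prior. Adjusted p are Benjamini-Hochberg over all tested genes, with a threshold of 0.05, and ± after a log2 change is its SE. Fold changes are on the log2(value + 1) scale and understate changes of low genes. The fit was checked on simulated data. Scaling came before the log because centring after the log was known to shift low genes. The members, lists, tests and this scaling were chosen with earlier results of these data known. List genes were named as up to 4 per list and comparison with the largest change among those that passed; the text gives those of them that passed under every alternative and a few that did not, and some named genes are not reported here. The symbols COP1, MRTFA and MRTFB replaced older ones in the lists. Each library's replicate number was not shown to pair it with another. Alternatives changed the scaling, pseudocount, filter, libraries in the fit, replicate block, length and GC trends, or the test (voom on recovered reads), or left out 1 library. Python 3.11.15 and RefSeq promoter windows were used for sequences.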

Additional observations from a re-analysis of the deposited data

How the results depend on the processing

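The numbers of family mRNAs called were 3 in IP against input without glucose, 3 in complete medium, 0 in the ratio difference, 1 between inputs and 3 between IPs. Of all tested genes 59.8%, 59.9%, 5.03%, 34.0% and 41.2% were called. The 4 FOS family mRNAs entered the test through their IP values. Counts that include them, also between the inputs, are descriptions and lend no weight to the family. With the values as deposited the numbers were 7, 7, 1, 0 and 4, where 87.2%, 76.0%, 32.4%, 18.1% and 48.5% of all tested genes were called. Centring after the log gave 4, 3, 1, 0 and 4, where 54.9%, 56.8%, 14.8%, 12.6% and 49.6% of all tested genes were called. Quantile normalization gave 0 between inputs, where 17.4% were. A mean RPKM of at least 5 gave 2, 1, 0, 0 and 1, since only JUN, JUNB and JUND were then tested. Of all genes tested there 72.5%, 67.4%, 5.97%, 40.5% and 48.7% were called. No filter gave 0 between inputs and 1 between IPs, where 6.99% and 8.73% of all genes were called. With only the libraries compared, 6 were called without glucose and 4 between inputs. For these fits, and for those that leave out 1 library, no share over all tested genes is given, so their counts are not read as results about the family. With length and GC trends removed the counts were 5 without glucose, 7 in complete medium, 3 between inputs and 5 between IPs, where 57.7%, 59.9%, 35.5% and 40.9% of all tested genes were called, and the same with the replicate block added. Leaving out 1 library gave 3 to 6 without glucose, 3 to 7 in complete medium, 0 to 2 in the ratio difference, 0 to 5 between inputs and 1 to 5 between IPs. Where a group kept 1 library, that library was assumed to vary like the other groups. For single mRNAs, 586 values kept their side of the threshold, and some of these changed direction without passing in either fit. A further 67 newly passed, 16 no longer passed and 4 reversed where a fit passed. The reversals were FOS (-1.04) and FOSL1 (-1.08) without glucose with centring, and FOSL2 between inputs with length and GC trends removed (0.44, with and without the replicate block). The causes were not tested. The replicate block alone called 4 between IPs, where 40.3% of all tested genes were called, and changed no other count. Same-numbered libraries correlated at -0.096 to 0.135. Depth limits FOS, FOSB and FOSL1 most, with 2 to 11 reads in the glucose-free inputs.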
